A study of Mus musculus with 3 samples.

Results

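Toll-like receptors, the accessory proteins MD-1 and MD-2 and the proteins that pass on their signal are described here through 8 genes, Tlr1, Tlr4, Tlr7, Tlr9, Ly86, Ly96, Myd88 and Irak3. They were chosen by name, with earlier results of these data known, and were matched through the symbol that the platform annotation gives to a probe. Of these, 7 had a probe under their symbol, each with 1 probe, among 16390 genes with a named probe. Tlr9 had none and was not analysed here. Expression was read on 3 single-colour oligonucleotide arrays, with 1 array each for Venus+ CD138hi cells of the bone marrow, Venus+ CD138hi cells of the spleen and B220+ cells of the spleen. All 3 populations were sorted fresh from IL-10 Venus reporter mice, so the B220+ cells carried the reporter too. Fluorescence of Venus reports on expression of Il10. Plasma cells carry CD138 at a high level, and B220 is a form of CD45 found on B cells. The Venus gate selects the Il10-expressing part of the CD138hi cells, whereas no Venus gate is given for the B220+ cells, and plasmacytoid dendritic cells carry B220 too. No B220+ array of bone marrow was used, so organ and cell type differ together between bone marrow Venus+ and B220+ cells. For the mice, the sources used here give no age, sex, number or pooling.

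Toll-like receptors are membrane proteins that recognise molecules of microbes, at the cell surface or inside endosomes. On B cells they drive proliferation, cytokine production and differentiation into plasma cells. TLR1 acts at the surface together with TLR2 and recognises bacterial lipoproteins, TLR4 recognises lipopolysaccharide, and TLR7 and TLR9 sit in endosomes and recognise single-stranded RNA and unmethylated CpG DNA. Accessory proteins hold some of these receptors at the surface. MD-2, the product of Ly96, binds TLR4 and the lipid of lipopolysaccharide, and the related MD-1, the product of Ly86, pairs with the Toll-like protein RP105, the product of Cd180, on B cells. MyD88 is the cytosolic adaptor of most of these receptors, and IRAK-M, the product of Irak3, is a kinase-like protein that inhibits the signal downstream of MyD88.

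With 1 array per population there was no replicate check and hence no test, and array and population cannot be told apart. Values are normalized signals, with the median of the detected signals of each array set to 25, and a signal is set only against the same probe on another array. The error given is a spot error, from the spread of blank and of positive control spots within an array, and does not cover the spread between mice or sorts. A gene is called higher or lower where it was detected on both arrays and differed at least 2-fold, a log2 ratio of 1 in size. Of 23473 probes, 67.6% were detected in bone marrow Venus+ cells, 73.4% in spleen Venus+ cells and 72.1% in B220+ cells. The labelled cell types had their markers. Against B220+ cells, 6 of 6 plasma cell markers detected on both arrays stood higher in bone marrow Venus+ cells, and 6 of 6 in the spleen Venus+ population. Of the B cell markers, 8 of 9 were lower in the bone marrow population and 8 of 10 in the spleen population. Among all genes detected on both arrays, 22.4% were higher and 30.7% lower in the bone marrow population, and 15.7% and 16.5% in the spleen population. Over all genes, log2 ratios had a median of -0.02 for spleen Venus+ over B220+ cells, -0.24 for bone marrow Venus+ over B220+ cells and -0.17 for bone marrow over spleen Venus+ cells. With scaling to the probes that were detected throughout, these medians moved by -0.04, 0.29 and 0.33, so differences of the bone marrow array are also given relative to the median.

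The 4 sequences printed next are stretches around the transcription start sites of the genes on which the comparisons turn, from 250 bases before to 50 bases after a start. Ly86 was the gene with the largest difference, Tlr1 and Irak3 were lower in both Venus+ populations, and Myd88 is the shared adaptor. They are RefSeq sequences of build GRCm38.p6, of which 5 of the 8 genes matched a start. Capitals mark matches, on either strand, to any of 6 motifs: the PU.1 core GAGGAA, the Blimp1 motif AGNGAAAG, the Ets-IRF composite, the octamer ATGCAAAT, the NF-kB motif and TATAAA.
Ly86, chr13:37345095-37345394 (plus strand): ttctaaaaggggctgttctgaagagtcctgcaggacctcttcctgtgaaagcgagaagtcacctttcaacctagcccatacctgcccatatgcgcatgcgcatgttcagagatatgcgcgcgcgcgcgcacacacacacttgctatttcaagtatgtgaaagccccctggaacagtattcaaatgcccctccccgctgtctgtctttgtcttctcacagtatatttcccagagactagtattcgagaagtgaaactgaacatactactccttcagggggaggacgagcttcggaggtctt
Tlr1, chr5:64933509-64933808 (minus strand): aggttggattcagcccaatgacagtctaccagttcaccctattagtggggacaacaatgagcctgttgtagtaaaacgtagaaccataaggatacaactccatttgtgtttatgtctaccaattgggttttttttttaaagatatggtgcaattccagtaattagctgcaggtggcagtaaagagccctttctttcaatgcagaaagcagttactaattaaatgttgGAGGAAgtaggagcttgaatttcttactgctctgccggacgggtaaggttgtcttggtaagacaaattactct
Irak3, chr10:120202081-120202380 (minus strand): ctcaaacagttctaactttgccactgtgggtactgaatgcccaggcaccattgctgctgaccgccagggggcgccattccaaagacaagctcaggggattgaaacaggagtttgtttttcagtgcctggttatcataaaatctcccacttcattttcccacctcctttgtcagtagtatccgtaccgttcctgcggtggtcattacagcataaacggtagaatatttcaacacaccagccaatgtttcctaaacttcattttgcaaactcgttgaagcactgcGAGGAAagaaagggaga
Myd88, chr9:119339969-119340268 (minus strand): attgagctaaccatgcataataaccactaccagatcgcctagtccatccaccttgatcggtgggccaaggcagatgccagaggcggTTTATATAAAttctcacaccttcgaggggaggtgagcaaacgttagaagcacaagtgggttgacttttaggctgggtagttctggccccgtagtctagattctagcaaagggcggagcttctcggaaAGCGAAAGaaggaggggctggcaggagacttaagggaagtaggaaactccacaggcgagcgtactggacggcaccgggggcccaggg
The PU.1 core stood at bases 228 to 233 of the Tlr1 window and at bases 284 to 289 of the Irak3 window. It is found in 28.3% of the 32851 RefSeq start windows of this length. The Myd88 window held the Blimp1 motif at bases 214 to 221, a motif of 8.63% of all windows. It also held TATAAA on both strands, at bases 87 to 92 and 91 to 96, where the 2 matches overlap in a single run of capitals, and that motif is in 13.6% of all windows. The Ly86 window held none of the 6 motifs, which says only that these letters are not in this window. The Ets-IRF composite is in 2.72%, the octamer in 1.74% and the NF-kB motif in 4.51% of all windows, and none of these 3 was in the 4 printed. A second start window each of Tlr1 and Irak3 held no match and is not printed. The window of Tlr9, which was not measured, is not printed either and held the PU.1 core at bases 139 to 144 and 263 to 268, the octamer at bases 179 to 186 and the Blimp1 motif at bases 249 to 256. These matches describe the sequences and are not evidence of binding.

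Among the accessory proteins, Ly86 was lower and Ly96 higher in bone marrow Venus+ cells, both set against B220+ cells. Ly86, which encodes MD-1, had a signal of 25.3 ± 2.01 in bone marrow Venus+ cells, 1332 ± 76.8 in spleen Venus+ cells and 1497 ± 113 in B220+ cells (spot error, 1 array each). The 2 spleen arrays were high and, as reported, differed by less than 2 spot errors, and the bone marrow array was low. Between bone marrow and spleen Venus+ cells Ly86 was 52.7-fold lower (log2 ratio -5.72 ± 0.14), rank 3 from the lowest among 11352 genes detected on both arrays. Against B220+ cells it was 59.3-fold lower in bone marrow Venus+ cells (-5.89 ± 0.16), rank 12 from the lowest among 10813 genes, while the spleen Venus+ cells stood at -0.17 ± 0.14. The bone marrow signal was still 10.7 times the lowest detected signal of its array. In bulk RNA of sorted cells, fewer cells of a type and less RNA per cell cannot be told apart. A background model on the local background, normexp, brought the bone marrow over spleen ratio to -4.13 and the bone marrow over B220+ ratio to -3.61. The spleen Venus+ over B220+ ratio became 0.52 with normexp and 0.35 with local background subtraction, both within 2-fold but beyond 2 spot errors. The Ly86 spot had a median of 1751 beside a local background of 295 on the spleen Venus+ array, against 2902 beside 1580 on the B220+ array.

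Ly96, which encodes MD-2, was high in both Venus+ populations. Its signal was 257 ± 13.5 in bone marrow Venus+ cells, 245 ± 14.2 in spleen Venus+ cells and 60.0 ± 4.62 in B220+ cells. The 2 Venus+ arrays differed by less than 2 spot errors and both lay above the B220+ array. Ly96 was 4.29-fold higher in bone marrow Venus+ cells than in B220+ cells (log2 ratio 2.10 ± 0.13) and 4.09-fold higher in spleen Venus+ than in B220+ cells (2.03 ± 0.14). In the spleen comparison 95.1% of the 11618 genes had a lower ratio. It was the only gene of the group called higher in either comparison with B220+ cells.

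**Figure D1:**
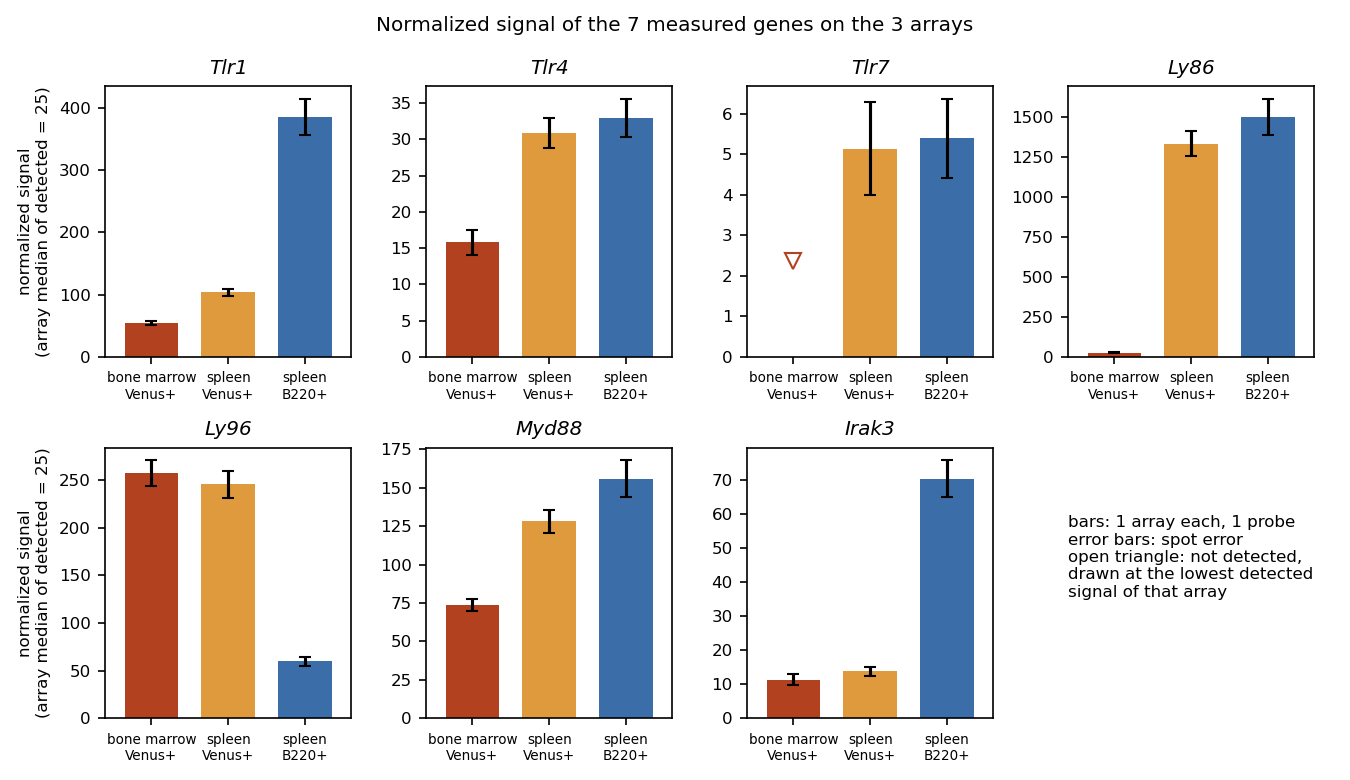
Normalized signal (y axis, array median of detected signals set to 25, each panel with its own scale from 0) of the 7 measured genes in bone marrow Venus+, spleen Venus+ and spleen B220+ cells, with 1 array and 1 probe per bar and the spot error as error bar. Ly86 stands at 25.3, 1332 and 1497, Ly96 at 257, 245 and 60.0, and the open triangle marks Tlr7 as not detected in bone marrow Venus+ cells.

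The 3 measured receptors were lowest or not detected in bone marrow Venus+ cells, and Tlr1 alone of them was also called lower in spleen Venus+ than in B220+ cells. Tlr1 had signals of 54.6 ± 3.22 in bone marrow Venus+ cells, 103 ± 6.07 in spleen Venus+ cells and 385 ± 29.2 in B220+ cells. The B220+ array was the highest, and the 2 Venus+ arrays, although more than 2 spot errors apart, differed less than 2-fold (log2 ratio -0.92 ± 0.12, or -0.75 relative to the median of all genes). Tlr1 was 7.05-fold lower in bone marrow Venus+ cells than in B220+ cells (log2 ratio -2.82 ± 0.14) and 3.73-fold lower in spleen Venus+ cells (-1.90 ± 0.14). With normexp these ratios were -1.02 and -0.51, and with local background subtraction the spleen ratio was -0.98, so the spleen call was lost under both. The Tlr1 spot had a median of 173 beside a local background of 84.0 on the spleen Venus+ array, against 779 beside 575 on the B220+ array.

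Tlr4, the lipopolysaccharide receptor, had signals of 15.8 ± 1.72 in bone marrow Venus+ cells, 30.9 ± 2.09 in spleen Venus+ cells and 32.9 ± 2.64 in B220+ cells. The 2 spleen arrays differed by less than 2 spot errors and the bone marrow array was the lowest. The ratio of bone marrow Venus+ over B220+ cells was just past the 2-fold limit, at -1.06 ± 0.20, and under it relative to the median of all genes (-0.82), and 8 of 10 other ways of processing took it under 2-fold. With normexp this ratio was -0.04 and with local background subtraction -0.29. Bone marrow over spleen Venus+ cells stood at -0.97 ± 0.19 as reported, at -0.04 with normexp and at -0.28 with local background subtraction. Ly96, the gene of its partner, stood at 0.07 ± 0.11 between the Venus+ arrays as reported, at -0.24 with normexp and at 0.21 with local background subtraction. Tlr4 and Ly96 thus differed in this ratio as reported, but not clearly with either of these backgrounds.

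Tlr7, an endosomal receptor encoded on the X chromosome, was dim or not detected on each array. It was not detected in bone marrow Venus+ cells and had signals of 5.13 ± 1.14 in spleen Venus+ cells and 5.39 ± 0.97 in B220+ cells. The 2 spleen signals differed by less than their spot errors (log2 ratio -0.07 ± 0.41). Tlr7 was at least 2.18-fold lower in bone marrow Venus+ cells than in spleen Venus+ cells and at least 2.29-fold lower than in B220+ cells, bounds set by the lowest detected signal of the bone marrow array. Of the genes detected in spleen Venus+ cells, 2.46% were detected there and not in bone marrow Venus+ cells with such a bound of at least 2-fold, and the same held for 4.61% of the genes detected in B220+ cells. In the other direction, 0.642% of the genes detected in bone marrow Venus+ cells had such a bound over spleen Venus+ cells and 5.66% over B220+ cells. A limit at the blank mean plus 3 SD lowered the bounds of Tlr7 to 1.44 against spleen Venus+ and 1.46 against B220+ cells. In that order they were 1.74 and 1.87 with scaling to probes detected on all 3 arrays and 1.72 and 1.62 with the 75th percentile. Local background gave 1.81 and 2.04, quantile normalization 1.72 and 2.41, and the level of spots without a probe 2.68 and 1.86. With normexp they were 0.98, which no longer bounds a difference, and 1.03.

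Myd88 and Irak3 act below the receptors. Myd88 had signals of 73.7 ± 4.13 in bone marrow Venus+ cells, 128 ± 7.47 in spleen Venus+ cells and 156 ± 11.8 in B220+ cells. The arrays stood in that order with less than 2-fold between neighbours. Bone marrow Venus+ over B220+ cells stood at -1.08 ± 0.14, or -0.84 relative to the median of all genes, and 7 of 10 other ways of processing took the ratio under 2-fold. Spleen Venus+ over B220+ cells stood at -0.28 ± 0.14 and bone marrow over spleen Venus+ cells at -0.80 ± 0.12.

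Irak3, which encodes the inhibitor IRAK-M, had signals of 11.3 ± 1.63 in bone marrow Venus+ cells, 13.9 ± 1.36 in spleen Venus+ cells and 70.5 ± 5.40 in B220+ cells. The 2 Venus+ arrays were low and close to each other (log2 ratio -0.30 ± 0.25), and the B220+ array was high. Irak3 was 6.25-fold lower in bone marrow Venus+ cells than in B220+ cells (log2 ratio -2.64 ± 0.24) and 5.09-fold lower in spleen Venus+ cells (-2.35 ± 0.18). In the spleen comparison 1.65% of 11618 genes had a lower ratio. Normexp brought the ratios to -0.67 and -0.56, under 2-fold, and they stayed past 2-fold under the other 9 ways of processing.

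**Figure D2:**
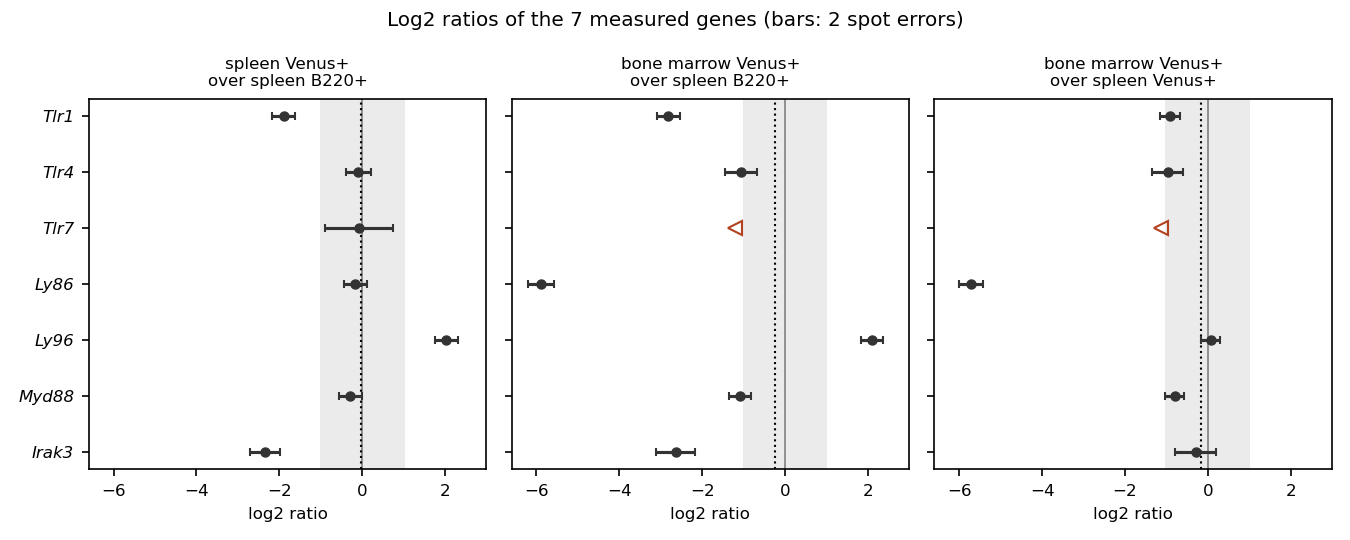
Log2 ratio (x axis) of each measured gene in the 3 comparisons, with bars of 2 spot errors, a grey band within 2-fold, a dotted line at the median of all genes and open arrows at the bounds of Tlr7. Ly86 lies at -5.89 and -5.72 in the comparisons that hold the bone marrow array and at -0.17 in the spleen comparison, and Ly96 lies at 2.03 and 2.10 over B220+ cells.

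In counts, spleen Venus+ over B220+ cells had 1 of 7 genes of the group higher and 2 lower, beside 15.7% higher and 16.5% lower among 11618 genes. A bound of 2-fold or more, from detection on a single array, held for 4.13% of the genes detected in spleen Venus+ cells and for 1.22% of those detected in B220+ cells. Bone marrow Venus+ over B220+ cells had 1 of 6 genes higher and 5 lower, beside 22.4% higher and 30.7% lower among 10813 genes. Relative to the median of all genes, 3 of the 6 were lower, beside 25.1% of all genes, Tlr4 and Myd88 no longer among them. Bone marrow over spleen Venus+ cells had 0 of 6 higher and 1 lower, beside 4.33% higher and 15.2% lower among 11352 genes. The median log2 ratio of the group was -0.17, -1.86 and -0.86 in these comparisons. With so few genes, the counts of the spleen comparison and of the comparison of the Venus+ populations are near the shares among all genes. The comparisons share arrays pairwise and are not independent.

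Background and scaling choices moved the ratios by unequal amounts. Ly86 in the comparisons that hold the bone marrow array, and Ly96 in those over B220+ cells, stayed past 2-fold under all 10 other ways of processing. The ratios of Tlr4 and Myd88 for bone marrow Venus+ over B220+ cells stayed past it under 2 and 3 of the 10.

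**Figure D3:**
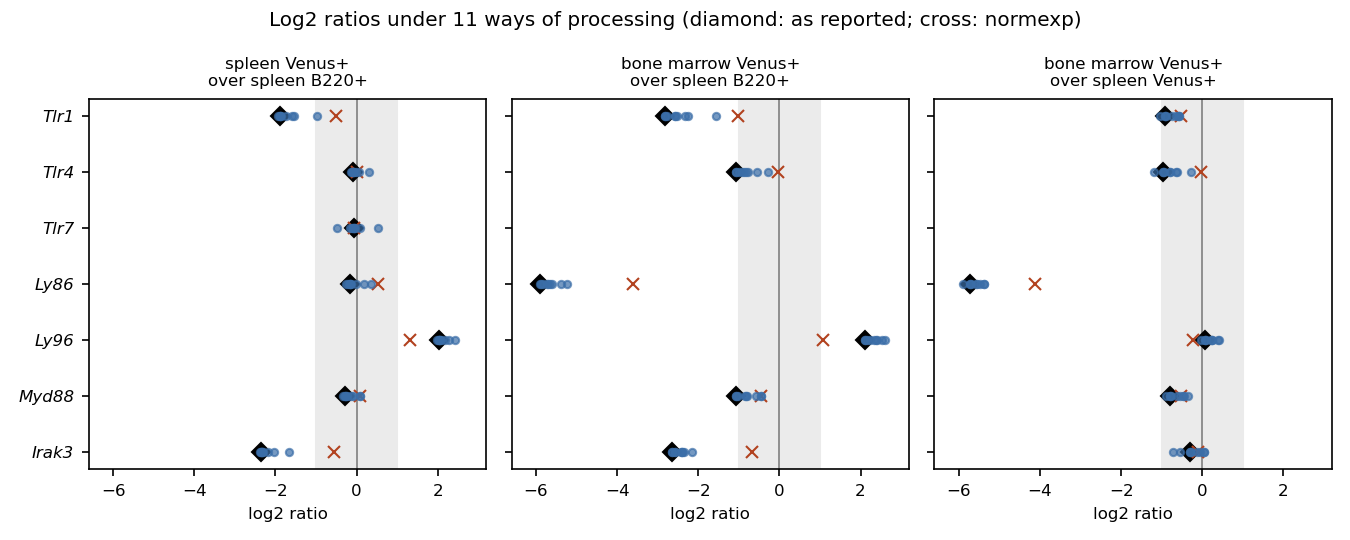
Log2 ratio (x axis) of each measured gene in the 3 comparisons as reported (black diamond), with the normexp background (red cross) and under 9 other ways of processing (blue points), with a grey band within 2-fold. Normexp gives the smallest ratios for Irak3 over B220+ cells, at -0.67 and -0.56, while Ly86 stays at -3.61 and -4.13 in the comparisons that hold the bone marrow array.

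**Figure D4:**
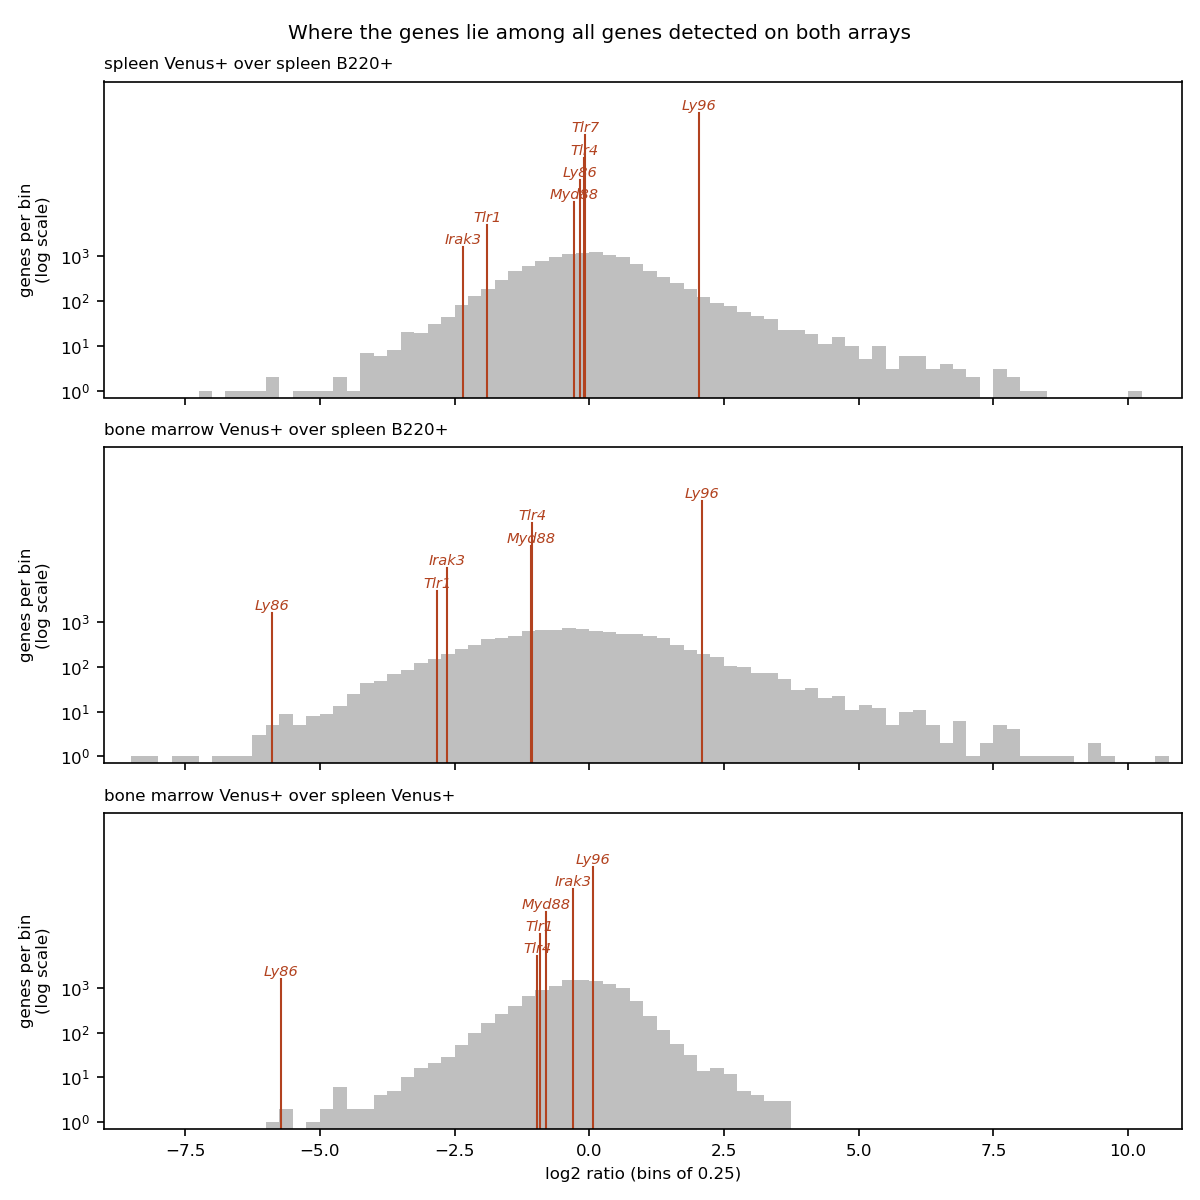
Number of genes (y axis, log scale) by log2 ratio (x axis, bins of 0.25) of every gene that both arrays of a panel detected, with lines at the genes of the group, whose height only sets the labels apart. Ly86 lies in the far left tail at -5.89 and -5.72 in the 2 lower panels, and in the upper panel Irak3 lies at -2.35 and Ly96 at 2.03, on either flank.

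The calls of Ly86, within 2-fold between the spleen arrays and lower on the bone marrow array in both its comparisons, were found for 7.68% of 10769 genes with a ratio in all 3 comparisons. The calls of Ly96 were shared by 12.5%, those of Tlr1 and Irak3 by 8.24% and those of Tlr4 and Myd88 by 8.62%. Likeness was measured as the distance between the pairs of log2 ratios over B220+ cells, among these genes. The nearest to Ly86 was Cd2, which encodes an adhesion receptor of lymphocytes, at a distance of 0.46, with ratios of -0.42 in spleen and -5.51 in bone marrow Venus+ cells. Rcsd1 (0.77) and Gimap3 (0.80) came next, and 1 gene lay within 0.5, in a range of ratios that few genes reach. For Irak3, 74 genes lay within that distance, the nearest being Cxxc5, St8sia4 and Acss1. For Tlr1 there were 240, led by Sucla2, Fbxl14 and Chfr, and for Ly96 248, led by Fbxl20, Tyr and Sec61a1, a subunit gene of the ER translocon. Tlr4 had 1117 such genes, led by Tor4a, Ccdc22 and Hps4, and Myd88 1379, led by Aplf, Phb2 and Armc6. With 3 arrays, likeness of this kind describes the arrays alone.

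Genes of direct partners also differed between the arrays. Cd180, whose product RP105 pairs with MD-1, had signals of 16.0 in bone marrow Venus+ cells, 59.1 in spleen Venus+ cells and 41.5 in B220+ cells. It was the lowest in the bone marrow array, like Ly86, with log2 ratios of -1.88 ± 0.18 over spleen Venus+ cells and -1.37 ± 0.19 over B220+ cells. The difference between the Venus+ arrays was smaller for Cd180 than for Ly86. Tlr2, which pairs with Tlr1 and Tlr6, had signals of 28.8, 61.5 and 41.0 in bone marrow Venus+, spleen Venus+ and B220+ cells, and Tlr6 had 10.7, 31.0 and 37.3 in the same cells. For bone marrow over spleen Venus+ cells Tlr2 stood at -1.09 ± 0.14 and Tlr6 at -1.53 ± 0.24, and Tlr6 stood at -1.80 ± 0.25 over B220+ cells. Of the other Toll-like receptors on the array, Tlr3, Tlr8, Tlr11 and Tlr13 were not detected in any population. Tlr12 was not detected in bone marrow Venus+ cells and had signals of 1.86 in spleen Venus+ cells and 6.60 in B220+ cells.

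Co-receptors, ligand carriers and receptor chaperones were called at shares near those of all genes in both comparisons over B220+ cells. Between bone marrow and spleen Venus+ cells, 0 of 12 were higher and 4 lower (33.3%), beside 4.33% and 15.2% of all genes. Against B220+ cells, bone marrow Venus+ cells had 4 of 12 such genes higher (33.3%) and 3 lower (25.0%), beside 22.4% and 30.7% of all genes. Spleen Venus+ cells had 3 of 12 higher (25.0%) and 2 lower (16.7%), beside 15.7% and 16.5%. Hsp90b1, which encodes gp96, the ER chaperone that folds Toll-like receptors, had signals of 10230, 9603 and 1912 in bone marrow Venus+, spleen Venus+ and B220+ cells, with log2 ratios over B220+ cells of 2.42 ± 0.13 in bone marrow and 2.33 ± 0.14 in spleen Venus+ cells. Unc93b1, which carries TLR7 and TLR9 to endosomes, had signals of 543, 718 and 578, all within 2-fold. Cnpy3, a co-chaperone of gp96, was higher in spleen Venus+ than in B220+ cells (1.11 ± 0.18) and lower in bone marrow than in spleen Venus+ cells (-1.29 ± 0.24). Ctsb, which encodes the lysosomal protease cathepsin B, stood at 2.84 ± 0.13 in bone marrow and 2.23 ± 0.14 in spleen Venus+ cells over B220+ cells. Slc15a4, an endolysosomal transporter used in TLR7 and TLR9 signalling, stood at -2.65 ± 0.14 in bone marrow and -1.30 ± 0.14 in spleen Venus+ cells. Cd36, a scavenger receptor gene, stood at -2.36 ± 0.15 in bone marrow and -1.59 ± 0.14 in spleen Venus+ cells. Cd14, the gene of the lipopolysaccharide co-receptor, was not detected in any population. Lbp, the gene of the protein that carries lipopolysaccharide to it, had dim signals of 9.25 in bone marrow Venus+ cells, 4.74 in spleen Venus+ cells and 3.45 in B220+ cells, with a log2 ratio of 1.42 ± 0.46 for bone marrow Venus+ over B220+ cells.

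Of 4 other adaptor genes detected, 3 lay within 2-fold of B220+ cells in each Venus+ population. Among all genes, 22.4% were higher and 30.7% lower in bone marrow Venus+ cells, and 15.7% and 16.5% in spleen Venus+ cells. Ticam1, the gene of TRIF, stood at 0.47 ± 0.19 in bone marrow Venus+ cells and was higher in spleen Venus+ cells (1.22 ± 0.17). Tirap, the gene of the adaptor that links MyD88 to TLR4 and TLR2, stood at -0.43 ± 0.15 in bone marrow and -0.11 ± 0.14 in spleen Venus+ cells. Ticam2, the gene of the adaptor that links TRIF to TLR4, stood at -0.11 ± 0.17 in bone marrow and 0.36 ± 0.16 in spleen Venus+ cells. Pik3ap1, which encodes the PI3-kinase adaptor BCAP, was lower in bone marrow Venus+ cells (-1.91 ± 0.19) and stood at -0.55 ± 0.14 in spleen Venus+ cells.

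Of 18 kinase and ubiquitin ligase genes detected on both arrays, 11 were lower (61.1%) and 1 higher (5.56%) in bone marrow Venus+ cells than in B220+ cells, beside 30.7% and 22.4% of all genes, and the median was -1.63 beside -0.24 for all genes. In the spleen comparison 7 were lower (38.9%) and 3 higher (16.7%), beside 16.5% and 15.7%, and the median was -0.09 beside -0.02. Ikbkb, the gene of a catalytic subunit of the IkB kinase, stood at -3.31 ± 0.15 in bone marrow and -1.38 ± 0.14 in spleen Venus+ cells. Map3k8, a kinase gene of the ERK branch, stood at -2.99 ± 0.29 in bone marrow and -1.70 ± 0.16 in spleen Venus+ cells. Peli1, the gene of an IRAK-binding ubiquitin ligase, stood at -2.63 ± 0.14 in bone marrow and -1.95 ± 0.14 in spleen Venus+ cells. Irak2, a kinase gene of the MyD88 complex, had signals of 3.80 in bone marrow Venus+ cells, 15.1 in spleen Venus+ cells and 18.2 in B220+ cells, and stood at -2.26 ± 0.59 for bone marrow Venus+ over B220+ cells and -1.99 ± 0.60 for bone marrow over spleen Venus+ cells. Irak1, another kinase gene of that complex, lay within 2-fold in both, at 0.19 ± 0.13 in bone marrow and 0.62 ± 0.14 in spleen Venus+ cells. Traf6, the gene of the ubiquitin ligase below it, did too, at 0.40 ± 0.18 in bone marrow and 0.10 ± 0.18 in spleen Venus+ cells. Peli3 was higher in both, at 2.23 ± 0.56 in bone marrow and 2.04 ± 0.56 in spleen Venus+ cells, over a dim signal of 2.47 in B220+ cells.

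Of 16 genes of inhibitors, 2 were higher (12.5%) and 7 lower (43.8%) in bone marrow Venus+ cells when set against B220+ cells, beside 22.4% and 30.7% of all genes. In spleen Venus+ cells 3 were higher (18.8%) and 0 lower, beside 15.7% and 16.5% of all genes. The 3 higher in spleen Venus+ cells were Socs1, a suppressor of cytokine signalling (1.29 ± 0.18), Tnip2, whose product binds A20 (1.07 ± 0.14), and Dok3 (1.03 ± 0.14). Inpp5d, the gene of the phosphatase SHIP-1, and Nfkbiz were the lowest, at -2.36 ± 0.16 and -2.16 ± 0.19 in bone marrow Venus+ cells. Tollip, which binds IRAK proteins, lay within 2-fold at -0.70 ± 0.14 in bone marrow and -0.12 ± 0.14 in spleen Venus+ cells. Irak3 itself, not counted in this list, was lower in both Venus+ populations.

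Of 13 transcription factor genes, 3 were higher (23.1%) and 5 lower (38.5%) in bone marrow Venus+ cells than in B220+ cells, beside 22.4% and 30.7% of all genes. In spleen Venus+ cells 3 were higher and 3 lower (23.1% each), beside 15.7% and 16.5%. Fos and Jun, the AP-1 genes, were the highest in both populations, at 6.005 ± 0.21 and 3.16 ± 0.14 in bone marrow and 7.60 ± 0.21 and 4.23 ± 0.14 in spleen Venus+ cells. Irf8, the gene of a lymphoid and myeloid interferon regulatory factor, was the lowest in both, at -4.08 ± 0.14 in bone marrow and -2.74 ± 0.14 in spleen Venus+ cells. Nfkb1, the gene of an NF-kB subunit, stood at -2.83 ± 0.14 in bone marrow and -0.81 ± 0.14 in spleen Venus+ cells.

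Over the 6 lists together, bone marrow Venus+ cells had 28 of 65 genes (43.1%) lower and 10 higher than B220+ cells, beside 30.7% and 22.4% of all genes, with a median of -0.57, or -0.33 relative to all genes. In the spleen comparison 13 of 66 genes (19.7%) were lower and 13 were called higher, beside 16.5% and 15.7% of all genes. The median was 0.08 there, beside -0.02 for all genes. Between bone marrow and spleen Venus+ cells, 21 of 65 (32.3%) were lower and 0 higher, beside 15.2% and 4.33% of all genes. The median was -0.62, or -0.45 relative to all genes. Each gene of these lists was read by 1 probe.

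**Figure D5:**
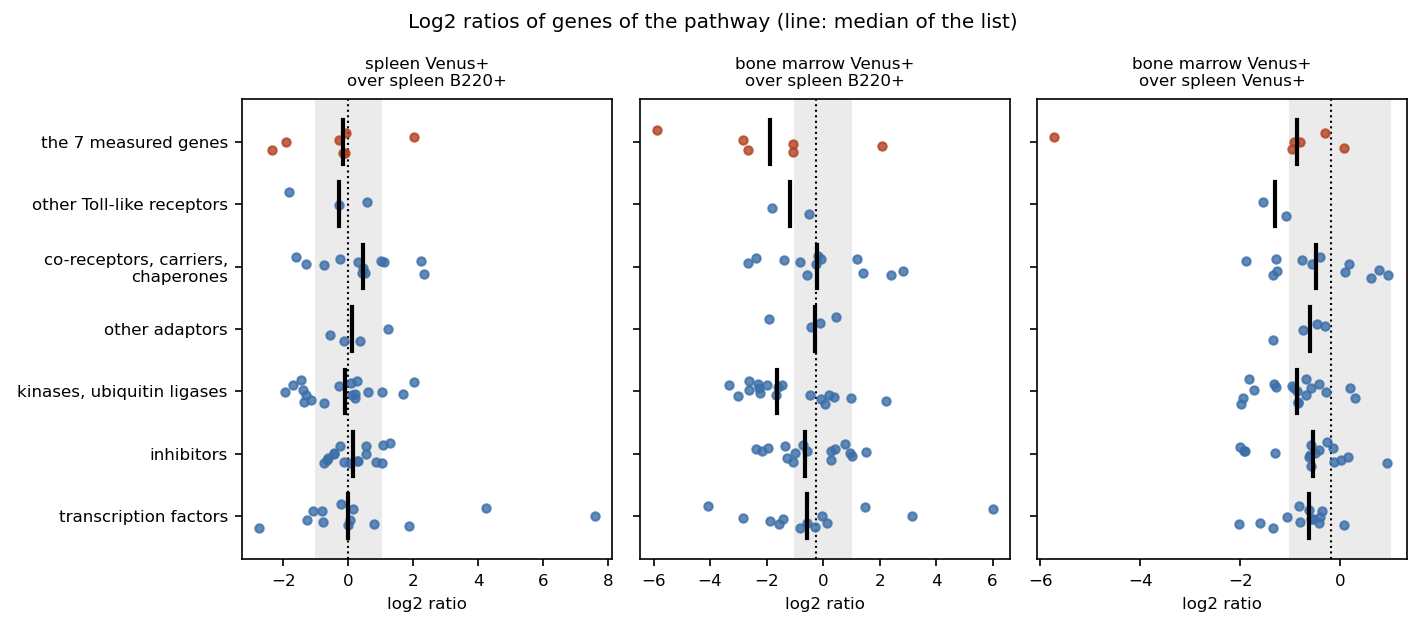
Log2 ratio (x axis, each panel with its own scale) of the measured genes of the group (red) and of 6 lists of other genes of the pathway (blue) in the 3 comparisons, with 1 point per gene, a black line at the median of each list, a grey band within 2-fold and a dotted line at the median of all genes. Kinase and ubiquitin ligase genes have a median of -1.63 for bone marrow Venus+ over B220+ cells and of -0.09 for spleen Venus+ over B220+ cells.

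Several of these genes are also expressed by myeloid cells, so markers of other cell types are given beside them. Of 13 markers of monocytes and macrophages, 8 were detected in bone marrow Venus+ cells, 6 in spleen Venus+ cells and 12 in B220+ cells. The summed signals were 447, 481 and 295 in that order of populations, which holds for the other lists too. Without the brightest genes, Cybb and Cd68, the sums were 52.7, 45.4 and 100, with B220+ cells the highest. Csf1r had signals of 27.3, 24.9 and 23.8, and Adgre1 was not detected in either Venus+ population and had 1.43 in B220+ cells. Cd68 had 241, 111 and 33.0, Mrc1 had 7.13, 9.83 and 1.498, and Cybb had 154, 325 and 162. Against B220+ cells, 2 of 7 such markers were higher and 2 lower in bone marrow Venus+ cells, and 3 of 6 were higher and 2 lower in spleen Venus+ cells. Among all genes, 22.4% were higher and 30.7% lower in bone marrow Venus+ cells, and 15.7% and 16.5% in spleen Venus+ cells. These shares also stand beside the later marker counts against B220+ cells. Fcgr3 (3.77, 2.39 and 13.1) and Vcam1 (7.76, 8.33 and 19.1) were lower in both Venus+ populations. Spic (26.9) and Ccr2 (8.64) were detected in B220+ cells and in neither Venus+ population. Cd68 and Mrc1 thus moved with Ly96 and these others went the other way, and the part of any of them in its ratios was not tested. Of 13 markers of neutrophils and granulocyte precursors, 11, 6 and 11 were detected, with summed signals of 574, 142 and 5239, and S100a8 had signals of 66.8, 12.5 and 1649. Of 8 dendritic cell markers, 3, 4 and 5 were detected, with summed signals of 35.1, 102 and 330.4, and Itgax, Xcr1 and Clec9a were detected in no population. Ccr7, not detected in bone marrow Venus+ cells, had 65.3 in spleen Venus+ and 303 in B220+ cells. Without Ccr7 the sums were 35.1, 37.2 and 27.5. Siglech, a marker of plasmacytoid dendritic cells, had 12.1, 11.98 and 39.0, whereas Ccr9 had 20.3, 40.7 and 4.205 and Cox6a2 had 52.1, 53.4 and 4.15. Against B220+ cells, 3 of 8 such markers were higher and 1 lower in bone marrow Venus+ cells, and 4 of 9 were higher and 2 lower in spleen Venus+ cells. Of 9 such markers 8, 9 and 9 were detected, and they had summed signals of 10837, 7149 and 15002, of which Ly6d made up nearly all, and 316, 245 and 174 without Ly6d. Of 10 T cell markers 9, 10 and 7 were detected, with summed signals of 1599.8, 1376 and 47.3. Without Cd247 (1038, 637 and 15.7) and Cd28 (477, 528 and 5.52) the sums were 84.8, 211 and 26.1. Among the granulocyte markers, 7 of 10 were lower and 2 higher in bone marrow Venus+ cells, and 5 of 6 were lower and 1 higher in spleen Venus+ cells, each against B220+ cells. The exceptions were Ly6g, higher in both Venus+ populations, and Mpo, higher in bone marrow Venus+ cells. Most of these markers thus moved with Tlr1 and Irak3, and their part in these ratios was not tested. For bone marrow Venus+ over B220+ cells they moved with Ly86 too (S100a8 at -4.62 ± 0.14). For spleen Venus+ over B220+ cells S100a8 stood at -7.04 ± 0.19 and Ly86 at -0.17 ± 0.14. Granulocyte markers went the other way from Ly86 in bone marrow over spleen Venus+ cells, with 4 of 6 higher and 0 lower. A further 5 were detected in bone marrow Venus+ cells and not in spleen Venus+ cells. In this comparison S100a8 stood at 2.42 ± 0.17, whereas Ly86 stood at -5.72 ± 0.14. The part of the granulocyte markers in the ratios of Ly86 was not tested.

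B cell markers also separated the Venus+ arrays. Of 9 detected on both, 6 were lower and 1 higher in bone marrow than in spleen Venus+ cells, beside 15.2% and 4.33% of all genes. The median was -1.60, beside -0.17 for all genes. The summed signals of the list were 4583, 12094 and 30117 in bone marrow Venus+, spleen Venus+ and B220+ cells. Pax5 was not detected in bone marrow Venus+ cells and Cr2 in neither Venus+ population. Cd72, an inhibitory receptor gene of B cells, had signals of 8.17 in bone marrow Venus+ cells, 434 in spleen Venus+ cells and 919 in B220+ cells (-5.73 ± 0.29 between the Venus+ arrays), and Blk, a B cell kinase gene, had 48.3, 982 and 718 (-4.35 ± 0.12). Ms4a1, the gene of CD20, had 333.5, 2619 and 10149 (-2.97 ± 0.11). Most B cell markers thus moved with Ly86 between the Venus+ arrays. Fcer2a (1.41 ± 0.12) and Ebf1 (0.39 ± 0.11, within 2-fold) went the other way. In spleen Venus+ over B220+ cells 8 of 10 B cell markers were lower, with a median of -1.41, whereas Ly86 stood at -0.17 ± 0.14. The part of the B cell markers in the ratios of Ly86 was not tested.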

How the data were processed

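RNA of 3 sorted populations was amplified, labelled with Cy5 and hybridized to Toray 3D-Gene mouse arrays, per the labels' protocols and the series' design text. The deposited scanner files hold spot median intensity and local background at 635 nm, per the file headers. The authors also deposited a table of processed intensity, for which, per the series' design text, a mean blank level (blank spots within an interval) was subtracted and the median of detected signals set to 25. Values were recomputed from the spot medians: the mean of the middle 90% of 2736 blank spots was subtracted, and a probe was detected above that mean plus 2 SD. Detection differed from the authors' table for 0 probes, and values of 10 or more differed by at most 4.05%. Array depth is not counted: the number of arrays limits precision. The lowest detected signals were 2.35 in bone marrow Venus+, 1.74 in spleen Venus+ and 1.34 in B220+ cells. The spot error combines the SD of all blank spots (1.52, 1.10 and 0.88 in the same order, in signal) with the relative SD of positive controls (5.21%, 5.77% and 7.57%). Faulty spots (2, 1 and 0) were left out.

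Symbols of 16631 probes came from the platform annotation and were updated through RefSeq (GRCm38.p6), which was used for names and start windows only. Genes with several probes elsewhere on the array were read from the probe brightest over the 3 arrays, by mean log2 signal. A gene detected on 1 of 2 arrays has a bound: its bright signal divided by its own signal on the dim array or, if higher, by the lowest one detected there. No test was made. All genes of the group are named, and from each pathway list values are given for at most 3 genes with the largest ratios per comparison and for a fixed list of direct partners (Cd180, Cd14, Lbp, Unc93b1, Hsp90b1, Cnpy3, Tlr2, Tlr6, Irak1, Irak4, Tirap, Ticam1, Ticam2, Tollip and Traf6), with markers chosen to describe other cells. Of these partners Irak4 had no probe under its symbol and has no value here. The members and lists were chosen with earlier results of these data known. Python 3.11.15, numpy 2.4.6, pandas 2.3.3, matplotlib 3.10.9 and limma 3.58.1 (normexp, offset 50) were used, and the calculation was tested on simulated data. Alternatives were the background, the source of the values, the scaling, the detection limit, the fold threshold, the handling of several probes and, chosen after seeing the data, ratios relative to the median of all genes.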

Additional observations from a re-analysis of the deposited data

How the results depend on the processing

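Ly86 (bone marrow over spleen Venus+ and over B220+ cells) and Ly96 (both Venus+ populations over B220+ cells) kept their call under all 10 other ways of processing, from -5.90 to -4.13, from -5.89 to -3.61, from 1.08 to 2.596 and from 1.31 to 2.42. No called ratio of the group changed sign. The sign of the spleen Venus+ over B220+ ratio of Tlr4, Ly86 and Myd88, all within 2-fold, held in 7 of 10. Counts of lower genes of the group in spleen Venus+ over B220+ cells were 2 as reported, 0 with normexp and 1 with local background. The shares lower among all genes were 16.5%, 4.38% and 16.9% in that order. In bone marrow Venus+ over B220+ cells the group had 5 lower as reported and 2 with normexp, beside 30.7% and 9.46% of all genes. It had 3 with local background (29.2% of all genes), with scaling to probes detected on all 3 arrays (24.1%) or to the 75th percentile (20.4%). It also had 3 with quantile normalization (24.5%) and with the level of spots without a probe (27.1%). The same count held with a 3-fold threshold (19.1%) and relative to the median of all genes (25.1%). In bone marrow over spleen Venus+ cells the group had 1 lower as reported, beside 15.2% of all genes. It had 3 with the level of spots without a probe, where Tlr1 and Tlr4 passed, beside 21.1% of all genes. At 1.5-fold it had 4, beside 29.1%. Apart from the steps that follow from the threshold itself and from the normexp offset, the cause was not tested. Normexp adds an offset of 50 to every value, which by arithmetic makes the ratios of dim probes smaller in size. The share of the offset in the normexp counts was not tested.

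For the pathway lists, spleen Venus+ over B220+ cells had 13 higher and 13 lower as reported, 6 and 6 with normexp and 7 and 5 at 3-fold. Among all genes the shares were 15.7% and 16.5% as reported, 3.10% and 4.38% with normexp and 7.95% and 6.26% at 3-fold. The lower count of the lists was 8 with quantile normalization, beside 15.7% of all genes. It was 7 with the level of spots without a probe (9.94%) and 20 at 1.5-fold (28.3%). Bone marrow Venus+ over B220+ cells had 10 higher and 28 lower, 5 and 11 with normexp, and 5 higher at 3-fold. The shares of all genes were 22.4% and 30.7%, 2.96% and 9.46% with normexp, and 12.8% higher at 3-fold. Bone marrow over spleen Venus+ cells had 21 lower, 6 with normexp, 13 with the 75th percentile, 36 at 1.5-fold and 10 at 3-fold. Of all genes, 15.2%, 3.33%, 7.94%, 29.1% and 5.14% were lower in that order. The higher count there, 0 as reported, was 4 with local background and at 1.5-fold, 3 with scaling to common probes or to the 75th percentile, and 2 with quantile normalization and relative to the median. Scaling also moved all genes: higher genes made up 42.2% of the calls of bone marrow Venus+ over B220+ cells and 53.9% with scaling to common probes or 61.2% with the 75th percentile. For bone marrow over spleen Venus+ cells the share was 22.2%, against 57.7% with common probes, 51.3% with quantile normalization, 59.0% with the 75th percentile and 39.8% relative to the median. With normexp 9.46% of all genes were lower in bone marrow Venus+ over B220+ cells, in place of 30.7%. Scaling to the 75th percentile moved the medians of all genes by 0.15, 0.50 and 0.34 (spleen Venus+ over B220+, bone marrow Venus+ over B220+, bone marrow over spleen Venus+ cells). Tlr7 and the dim values of Irak3 are limited by signal over background. No paired analysis was possible because each population has 1 array.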
